A study of Mus musculus with 16 samples.

Results

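The expression of 8 genes of the negative arm of the circadian clock was followed in liver and kidney of aged mice: Per1, Per2 and Per3 (the Period genes), Cry1 and Cry2 (the cryptochromes), Ciart (also called Chrono), and Csnk1d and Csnk1e (casein kinase 1 delta and epsilon). They were taken by symbol from the 32989 genes of the expression tables of both organs, all 8 were found, and all 8 passed the filter on low values in each organ. The mice were male C57BL/6J animals with no engineered allele, kept for 85 weeks from adulthood and 97 weeks old at sampling. The LD-conditioned mice (L63, L65, L86 and L104) stayed under light from 8:00 to 20:00, and the ADV-conditioned mice (A75, A91, A94 and A115) under a cycle advanced by 8 h every 4 days. Liver and kidney came from the same 8 mice, 4 per condition, which makes 16 poly(A)-selected, stranded RNA-seq libraries. Each library was a separate mouse within its organ, and the animals were alive and had shown no apparent weakness.

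In the mammalian clock, the CLOCK and BMAL1 (Arntl) proteins bind E-box elements and drive the transcription of the Per and Cry genes, whose products join in the nucleus and repress CLOCK and BMAL1. CIART adds a further repressor of the same heterodimer, and casein kinase 1 delta and epsilon bind and phosphorylate the PER proteins, which sets their stability and their entry into the nucleus. In liver and kidney this loop runs in most cells, is set by light through central and systemic cues and by feeding time, and gives the Per, Cry and Ciart transcripts a daily rise and fall, whereas the kinase transcripts vary little over the day.

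The tissues were taken once per mouse, within a window of a few hours in the early dark phase, counted from the last light onset. A difference in level and a difference in phase cannot be told apart in such samples, nor can fewer cells of a type and less RNA per cell. The libraries were sequenced by 2 providers, and which provider made which library is not given in the sources used here, so a sequencing batch cannot be told apart from the conditions.

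Values are FPKM, that is fragments per kilobase of exon, scaled to the mapped fragments of the library, as deposited. Library totals, in units of 1000000 fragments, were 22.7 to 26.3 in liver and 17.1 to 19.7 in kidney. The organ labels held: 6 hepatocyte markers summed to at least 55425 FPKM in every liver and at most 101 in every kidney, and 6 renal tubule markers to at least 1377 FPKM in every kidney and at most 1.39 in every liver. One library stood apart. In the kidney of A115, mitochondrial genes took 30.9% of the fragments, against 8.63 to 16.5% in the other 7 kidneys, 15454 genes had a fragment against 17207 to 18828, and 59.1% of all expressed genes lay below the range of the LD-conditioned kidneys. Kidney fold changes of the genes of the negative arm are therefore given with and without A115. Those of most other genes of the pathway are given only over all mice or only without A115. The summed level of 7 immune cell markers was higher in every ADV-conditioned liver (16.4 to 82.2 FPKM) than in every LD-conditioned one (11.8 to 15.6), as was that of 5 fibroblast and stellate cell markers (157 to 305 against 112 to 129). In kidney the ranges overlapped, with immune cell markers at 9.96 to 77.4 against 8.91 to 20.1 FPKM and fibroblast and stellate cell markers at 41.6 to 125 against 36.1 to 61.6. A94 was the highest mouse for both lists in both organs. The part of these shifts in the liver and kidney results was not tested.

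Upstream sequence was available from RefSeq (GRCm38) for 6 of the 8 genes, in 10 windows; Per2 and Csnk1d had no entry. The 250 bases before the transcription start were searched on both strands for the E-box CACGTG, the variant E-box CACGTT, the D-box TTATGTAA, the cAMP response element TGACGTCA and the ROR element TAGGTCA. These sequences are shown because the E-box and D-box are the elements through which the loop and its output factors DBP, TEF and HLF act, and matches are in capitals. All are written 5′ to 3′ along the gene.
Ciart (chr3:95882229-95882478, minus strand): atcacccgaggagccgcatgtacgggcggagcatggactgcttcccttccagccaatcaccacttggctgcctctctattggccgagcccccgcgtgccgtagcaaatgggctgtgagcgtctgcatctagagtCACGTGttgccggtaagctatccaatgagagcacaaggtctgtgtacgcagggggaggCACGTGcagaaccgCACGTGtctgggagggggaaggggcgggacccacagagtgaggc
Cry1 (chr10:85185055-85185304, minus strand): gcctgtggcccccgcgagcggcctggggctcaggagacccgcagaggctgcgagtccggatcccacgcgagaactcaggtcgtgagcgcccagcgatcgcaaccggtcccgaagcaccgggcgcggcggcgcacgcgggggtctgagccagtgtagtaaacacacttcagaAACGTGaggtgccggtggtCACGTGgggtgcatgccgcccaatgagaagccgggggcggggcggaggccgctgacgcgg
Per1 (chr11:69098699-69098948, plus strand): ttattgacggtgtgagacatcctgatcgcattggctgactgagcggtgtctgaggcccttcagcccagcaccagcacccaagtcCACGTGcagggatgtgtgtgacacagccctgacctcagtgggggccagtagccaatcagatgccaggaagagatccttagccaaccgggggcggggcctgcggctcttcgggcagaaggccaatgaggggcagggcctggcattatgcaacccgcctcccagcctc
Per3 (chr4:151044666-151044915, minus strand): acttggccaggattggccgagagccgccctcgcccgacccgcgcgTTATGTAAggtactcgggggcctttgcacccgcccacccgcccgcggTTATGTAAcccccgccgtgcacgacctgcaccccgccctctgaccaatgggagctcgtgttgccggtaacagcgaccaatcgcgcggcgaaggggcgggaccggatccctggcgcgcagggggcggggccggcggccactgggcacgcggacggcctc

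Ciart carried 3 copies of CACGTG within 116 bases of its start. Of all 32851 windows of the same length, 6.02% held at least 1 copy and 0.0609% at least 3. Cry1 carried 1 copy and, a few bases upstream of it, 1 variant E-box on the reverse strand, an element found in 3.85% of all windows. Per1 had 2 annotated starts. The window of the upstream start held 1 E-box, and the window of the downstream start, next to which the gene model of the expression table begins, held none of the 5 motifs. Of the 6 genes with a window, only Per3 held an exact match to the D-box TTATGTAA, with 2 copies at 205 and 158 bases before the start. Of all windows, 0.819% held 1 or more and 0.0183% at least 2. The Cry2 window held 1 variant E-box, and the 4 Csnk1e windows held none of the 5 motifs. These matches describe the letters of the windows and not binding.

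Expression was summed over the exons of 1 gene model per gene (mm10). The models lay at chr11:69100159-69109960 for Per1, chr1:91415983-91459328 for Per2, chr4:151003656-151044665 for Per3, chr10:85131701-85185054 for Cry1, chr2:92403647-92434069 for Cry2, chr3:95878506-95882228 for Ciart, chr11:120961742-120991333 for Csnk1d and chr15:79417853-79442057 for Csnk1e, all but Per1 on the minus strand. Their exons spanned 1389 bases in Ciart to 5978 bases in Per3. The fragments behind a value ranged from 11 for Ciart in the kidney of A115 to 1752.5 for Csnk1d in the kidney of A94. Fragments came in steps of 0.5. The 11 Ciart fragments have a 95% Poisson interval of 5.49 to 19.7, which covers counting error only.

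In the LD-conditioned livers, Csnk1d had the highest mean level and Csnk1e the lowest. The order was Csnk1d (14.0 FPKM), Cry1 (9.46), Cry2 (8.77), Per2 (8.36), Ciart (7.20), Per1 (6.71), Per3 (3.31) and Csnk1e (1.34). Neighbours in that order overlapped from mouse to mouse, except that Per3 lay below Per1 and Csnk1e below Per3 in every library. In the LD-conditioned kidneys the order was Csnk1d (18.1 FPKM), Per2 (11.4), Cry1 (6.99), Per1 (6.01), Cry2 (4.93), Csnk1e (4.77), Per3 (4.60) and Ciart (2.53). There, Csnk1d was separated from Per2, Per2 from Cry1, and Per1 from Cry2, while Cry2, Csnk1e, Per3 and Ciart ran into each other.

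**Figure D1:**
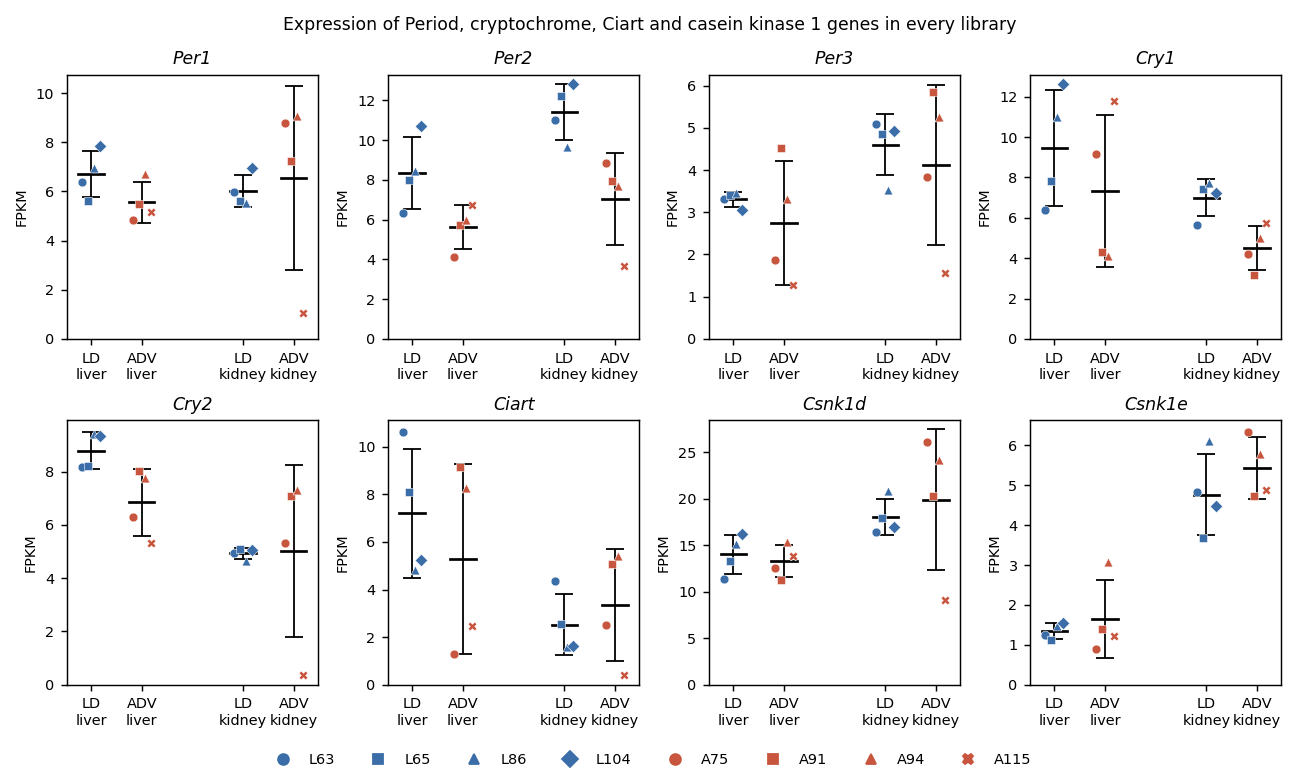
FPKM (vertical axes, from 0) of each gene in every library, by organ and condition; symbols are mice, horizontal bars the mean and error bars the SD (n = 4). The kidney of A115 (cross) lies far below the other ADV-conditioned kidneys for Per1, Cry2, Ciart and Csnk1d, whereas all 4 ADV-conditioned kidneys lie below the 4 LD-conditioned ones for Per2.

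The first question was whether the conditions differed in the level of these transcripts. Over all 8 mice no member passed the threshold of an adjusted p below 0.05 in liver or in kidney (limma on log2(FPKM + 0.1), Benjamini-Hochberg over all genes). In liver 0 of 8 members were called, with 2 under an unadjusted p of 0.05, where 0.00779% of 12835 genes were called and 1512 had an unadjusted p below 0.05. In kidney 0 of 8 were called, again with 2 under an unadjusted p of 0.05, where 0% of 14452 genes were called and 448 had an unadjusted p below 0.05. By limma-voom on the fragments recovered from the FPKM values, 0 of 8 were called in each organ as well. Without A115, 3 of 8 members were called in kidney, namely Per1, Per2 and Cry1, where 18.8% of 14475 genes were called. Fold changes below are ADV against LD on the log2(FPKM + 0.1) scale, with SE, and the values of single mice are given in the order L63, L65, L86 and L104, then A75, A91, A94 and A115.

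Per2, a core repressor of the loop, was the member whose ADV-conditioned kidneys all lay below the LD-conditioned ones. In kidney, Per2 was 11.0, 12.2, 9.65 and 12.8 FPKM in the LD-conditioned mice and 8.84, 7.94, 7.70 and 3.68 in the ADV-conditioned mice. A separation of all 4 mice against 4 in this direction was shown by 1.83% of the expressed genes. The log2 fold change was −0.76 ± 0.28 (adjusted p = 1 by limma; exact permutation p = 0.0286, two-sided, the smallest that 4 against 4 mice can give). Without A115 it was −0.48 ± 0.12 (limma adjusted p = 0.0326), while the median of all genes was 0.20, and with A115 left out and the libraries scaled by the median ratio it was −0.67 ± 0.14 (limma adjusted p = 0.0261). In liver, Per2 was 6.33, 7.98, 8.44 and 10.7 FPKM and then 4.11, 5.72, 5.97 and 6.74. The liver groups overlapped, since A115 lay above L63, and the log2 fold change was −0.56 ± 0.19 (limma adjusted p = 0.362).

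Per1, which responds to light and to glucocorticoids as well as to the loop, did not share that pattern. In kidney, Per1 was 5.98, 5.61, 5.51 and 6.95 FPKM and then 8.81, 7.25, 9.09 and 1.07. Of the ADV-conditioned kidneys, A75, A91 and A94 lay above every LD-conditioned kidney and A115 far below. The log2 fold change was −0.24 ± 0.63 over 8 mice and 0.47 ± 0.13 without A115 (limma adjusted p = 0.0394), and it was 0.28 ± 0.12 (limma adjusted p = 0.139) once the remaining libraries were also scaled by the median ratio, so that the call did not hold under both scalings. In liver, Per1 was 6.41, 5.62, 6.96 and 7.86 FPKM and then 4.85, 5.47, 6.73 and 5.18. The liver groups overlapped, with a log2 fold change of −0.27 ± 0.14 (limma adjusted p = 0.468).

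Per3, a Period gene that is largely dispensable for rhythmicity, varied among ADV-conditioned mice more than between conditions. In liver, Per3 was 3.31, 3.42, 3.46 and 3.06 FPKM and then 1.87, 4.52, 3.32 and 1.28. The 4 LD-conditioned livers were close to each other, whereas A75 and A115 lay below and A91 above them. In kidney, Per3 was 5.08, 4.86, 3.53 and 4.92 FPKM and then 3.84, 5.84, 5.25 and 1.57, and the groups overlapped. The log2 fold changes were −0.41 ± 0.33 in liver (limma adjusted p = 0.585; −0.12 without A115 and −0.70 without A91) and −0.29 ± 0.40 in kidney, the latter 0.11 ± 0.19 without A115 (limma adjusted p = 0.703). With median ratio scaling added, the kidney value without A115 was −0.081 ± 0.22 (limma adjusted p = 0.809), so its sign turned back.

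Cry1, the stronger repressor of the cryptochromes, was lower in the ADV-conditioned kidneys, with a call only without A115. In kidney, Cry1 was 5.65, 7.40, 7.72 and 7.21 FPKM and then 4.19, 3.18, 4.98 and 5.72. The groups met in 1 pair of mice, A115 lying just above L63. The log2 fold change was −0.64 ± 0.22 (limma adjusted p = 1; exact permutation p = 0.0571 over 4 against 4 mice), −0.76 ± 0.18 without A115 (limma adjusted p = 0.0245) and −0.95 ± 0.15 with the median ratio scaling added (limma adjusted p = 0.0196). In liver, Cry1 was 6.39, 7.82, 11.0 and 12.6 FPKM and then 9.17, 4.32, 4.09 and 11.8. Here A91 and A94 lay below every LD-conditioned liver and A75 and A115 within their range, and the log2 fold change was −0.46 ± 0.36 (limma adjusted p = 0.578).

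Cry2, the other cryptochrome, differed in sign between the organs when A115 was left out, with no call in either. In liver, Cry2 was 8.15, 8.19, 9.40 and 9.35 FPKM and then 6.28, 8.00, 7.76 and 5.32. All 4 ADV-conditioned livers lay below the LD-conditioned ones, as did 1.89% of the expressed genes, although A91 missed the lowest LD-conditioned liver by little, and the log2 fold change of −0.37 ± 0.14 was not called (limma adjusted p = 0.385). In kidney, Cry2 was 4.95, 5.09, 4.63 and 5.07 FPKM and then 5.31, 7.08, 7.32 and 0.380. The kidneys of A75, A91 and A94 lay above all 4 LD-conditioned kidneys, whereas that of A115 was 10.5-fold below the LD mean, on 29 fragments. The kidney log2 fold change was −0.55 ± 0.83 over 8 mice and 0.39 ± 0.14 without A115 (limma adjusted p = 0.0748), where the median of all genes was 0.20. With median ratio scaling added it was 0.21 ± 0.16 (limma adjusted p = 0.364). In liver without A115 the fold change was −0.26 ± 0.13 (limma adjusted p = 0.491), and −0.35 ± 0.12 with that scaling added (limma adjusted p = 0.363).

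Ciart, the repressor with 3 E-boxes in its upstream window, had the widest range of the members in liver. In liver, Ciart was 10.6, 8.11, 4.82 and 5.26 FPKM and then 1.29, 9.15, 8.26 and 2.47. The livers of A75 and A115 lay below every LD-conditioned liver, while A91 and A94 lay within their range. In kidney, Ciart was 4.34, 2.54, 1.59 and 1.63 FPKM and then 2.50, 5.09, 5.43 and 0.414, so that A91 and A94 lay above the LD-conditioned range, A75 within and A115 below it. The log2 fold changes were −0.77 ± 0.58 in liver (limma adjusted p = 0.568; −0.25 without A75 and −1.16 without A91) and 0.039 ± 0.76 in kidney, the latter 0.80 ± 0.39 without A115 (limma adjusted p = 0.173).

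The kinases showed no call in either organ. In kidney, Csnk1d was 16.5, 17.9, 20.9 and 17.0 FPKM and then 26.1, 20.3, 24.2 and 9.08. A75 and A94 lay above the LD-conditioned range and A115 below it, and the log2 fold change was 0.038 ± 0.32, or 0.38 ± 0.12 without A115 (limma adjusted p = 0.061). In liver, Csnk1d was 11.4, 13.3, 15.2 and 16.2 FPKM and then 12.6, 11.3, 15.4 and 13.9, an overlap of nearly the whole range, with a log2 fold change of −0.072 and a 95% interval of −0.38 to 0.24. Csnk1e was 1.26, 1.11, 1.46 and 1.54 FPKM and then 0.886, 1.38, 3.07 and 1.23 in liver, where A94 stood above all other livers, and 4.82, 3.67, 6.11 and 4.47 FPKM and then 6.34, 4.73, 5.79 and 4.87 in kidney. Its log2 fold changes were 0.14 ± 0.32 in liver (limma adjusted p = 0.865) and 0.20 ± 0.20 in kidney (limma adjusted p = 1), the latter 0.25 ± 0.18 without A115 (limma adjusted p = 0.356).

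**Figure D2:**
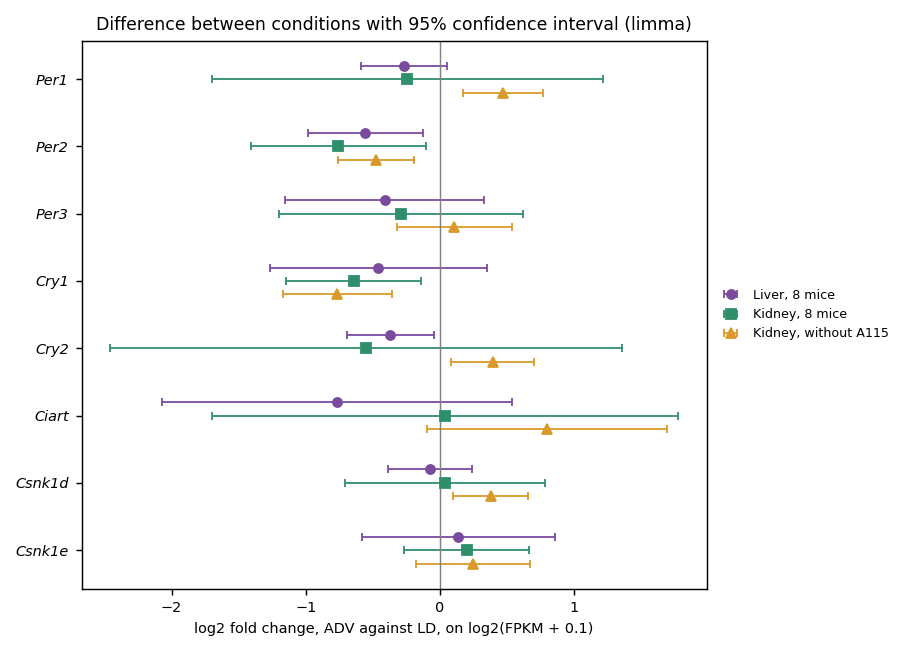
log2 fold change, ADV against LD (horizontal axis), for each gene in liver, in kidney, and in kidney without A115; bars are 95% confidence intervals from limma. Kidney intervals for Per1, Cry2 and Ciart are narrower without A115 than over 8 mice, although that of Ciart still spans −0.095 to 1.69. Without A115 the intervals of Per2 and Cry1 lie below 0 and those of Per1, Cry2 and Csnk1d above it.

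Without A115, the 3 remaining ADV-conditioned kidneys lay above the 4 LD-conditioned kidneys for Per1 and Cry2, which 24.8% of the expressed genes did, and below them for Per2 and Cry1, which 8.06% did. With median ratio scaling added, 2 of 8 members were called, Per2 and Cry1, both lower, where 16% of all genes were called.

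Pairs of members were then compared within each library, which cancels its scaling. In kidney, the Per1/Per2 ratio, on FPKM + 0.1, was 0.546, 0.463, 0.576 and 0.545 in the LD-conditioned mice and 0.997, 0.914, 1.18 and 0.309 in the ADV-conditioned mice. The kidney Cry1/Cry2 ratio was 1.14, 1.45, 1.65 and 1.41 and then 0.793, 0.457, 0.684 and 12.1. In both ratios A75, A91 and A94 lay on one side of every LD-conditioned kidney and A115 on the other. Of 10 tests, over 5 pairs in 2 organs, 0 passed, and the smallest p was that of kidney Per2/Per3, with a log2 difference of −0.47 (exact permutation p = 0.0857, adjusted p = 0.857; −0.58 without A115, adjusted permutation p = 0.190). Without A115 the log2 differences were 0.95 for kidney Per1/Per2 and −1.16 for kidney Cry1/Cry2, each with an adjusted p of 0.143 from the exact permutation test over 3 against 4 mice.

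Among the ADV-conditioned mice, the members split in a way the group means do not show. Relative to the LD mean of the organ, the liver of A75 had Ciart at −2.32, Per2 at −0.98 and Per3 at −0.79 on the log2 scale, with Cry1 at 0.0053. The liver of A115 had Ciart at −1.43, Per3 at −1.30 and Cry2 at −0.71, with Cry1 at 0.36. By contrast, the livers of A91 and A94 had Cry1 at −1.06 and −1.14, with Ciart at 0.42 and 0.27. The median of all genes was −0.0055 in the liver of A91 and 0.28 in that of A94, so that Ciart in the latter lay at the middle of its library. In the liver of A75, 0.0701% of all expressed genes deviated further down than Ciart, and in A91 0.382% deviated further down than Cry1, so these members stood near the end of the distribution of their library.

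In the kidneys of the same mice, A91 and A94 had Ciart at 1.10 and 1.19, Cry2 at 0.51 and 0.56 and Cry1 at −1.10 and −0.47. A75 had Cry1 at −0.72 and Per1 at 0.55. The medians of all genes were 0.056, 0.24 and 0.25 in the kidneys of A91, A94 and A75. The kidney of A115 had Cry2 at −3.39, Per1 at −2.38, Ciart at −2.24, Per2 at −1.60 and Per3 at −1.48, whereas Cry1 was at −0.28 and Csnk1e at 0.055. The median of all genes in that library was −0.48, and 1.91% of them were lower than Cry2 and 8.16% lower than Per1. Counted by gene, 6 of 8 members lay below the LD-conditioned range in the liver of A75, 5 in that of A91, 3 in that of A94 and 4 in that of A115, against 27.2%, 23.5%, 13.0% and 18.2% of all genes. In kidney, 2 members lay below the LD-conditioned range in A75, A91 and A94 each (Per2 and Cry1), against 21.1%, 22.7% and 18.4% of all genes, and 4, 4 and 5 above it, against 51.8%, 34.0% and 52.9%. In the kidney of A115, 6 lay below and 0 above it, against 59.1% and 24.04% of all genes.

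**Figure D3:**
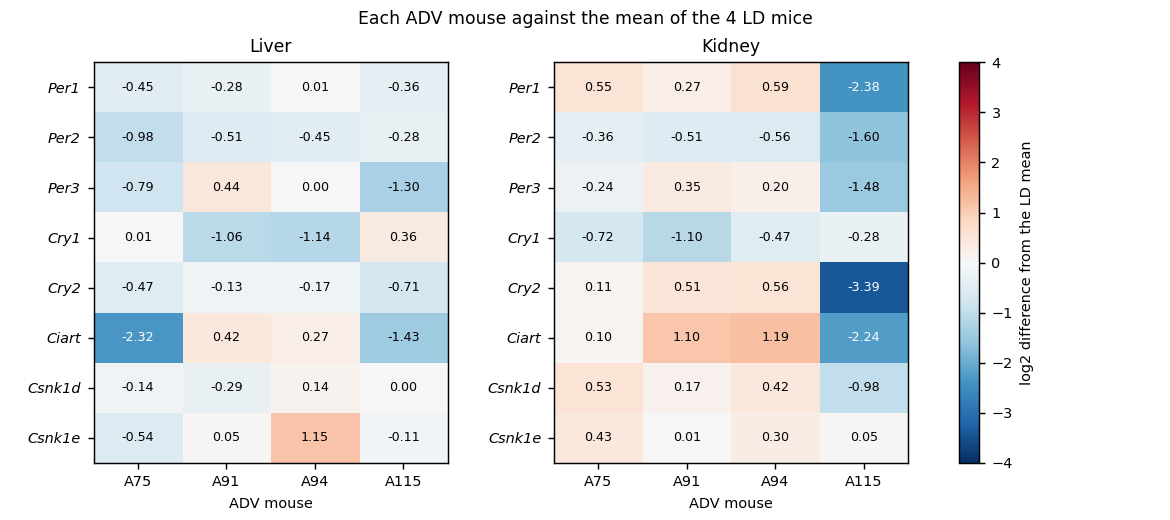
log2 difference of each ADV-conditioned mouse (columns) from the mean of the 4 LD-conditioned mice, per gene (rows) and organ; blue is lower and red higher. Ciart and Per3 are low in the livers of A75 and A115, Cry1 is low in both organs of A91 and A94, and Cry2 and Per1 are lowest in the kidney of A115.

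The spread among mice was compared by the ratio of the mean absolute deviation from the group's median, ADV over LD, with exact permutation over the mice. In liver the ratio was 11.7 for Per3, 2.56 for Ciart, 2.25 for Cry2 and 1.76 for Cry1, each at the smallest exact permutation p of 0.0286, while that for Per2 was 0.918. In kidney it was 25.8 for Cry2, also at 0.0286, and 3.60 without A115 (exact permutation p = 0.543). After adjustment over the 16 permutation tests each of these 5 had p = 0.0914, so 0 of 16 passed. The median ratio of the members was 2.01 in liver and 3.29 in kidney, beside 1.63 and 2.93 over all genes. Without A115 these medians were 1.11 and 1.09 for the members and 1.51 and 1.13 for all genes, and the liver ratios of Per3, Cry1, Cry2 and Ciart became 7.57, 1.05, 1.17 and 2.10, with exact permutation p of 0.257, 1, 0.886 and 0.886.

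Whether the 2 organs responded differently was tested by the interaction of organ and condition in 1 model. Over 8 mice 0 of 8 members were called and none reached an unadjusted p of 0.05, where 0% of 14379 genes were called and 536 had an unadjusted p below 0.05. Ciart had the most negative estimate, with −0.81 ± 1.03 (liver effect minus kidney effect, limma adjusted p = 1). Without A115, 0 of 8 were called and 3 had an unadjusted p below 0.05, where 2.88% of all genes were called. These were Cry2 at −0.65 ± 0.18 (limma adjusted p = 0.0679), Per1 at −0.71 ± 0.21 (limma adjusted p = 0.0767) and Csnk1d at −0.47 ± 0.20 (limma adjusted p = 0.198).

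Next, liver was set against kidney. As deposited, kidney values were higher for most genes, with a median log2 difference, liver minus kidney, of −0.74 over 14379 genes, and scaling by the median ratio moved that median to −0.013. Differences are therefore read against it. Csnk1e lay below that median and was lower in liver under both scalings, Cry1, Cry2 and Ciart were higher in liver under both, Per1 was near 0 as deposited and 0.90 ± 0.26 after scaling, and Per2, Per3 and Csnk1d turned from lower to higher with the scaling.

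Csnk1e was lower in the liver of all 8 mice, by −0.89 in A94 to −2.71 in A75 on the log2 scale. The mean difference was −1.77 ± 0.20 (limma adjusted p = 1.1e-06; exact sign-flip permutation p = 0.00781, the smallest that 8 mice can give), and −1.03 ± 0.17 after median ratio scaling (limma adjusted p = 7.7e-05). Csnk1d, its close relative, differed by −0.43 ± 0.18 as deposited (limma adjusted p = 0.0469) and by 0.34 ± 0.11 after scaling (limma adjusted p = 0.0158), a turn of sign. As deposited, the call on Csnk1d was lost when any of the 7 mice other than A115 was left out (limma adjusted p = 0.0596 to 0.143).

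Cry2 was higher in the liver of all 8 mice, by 0.083 in A94 to 3.50 in A115. The mean difference was 0.91 ± 0.44 (limma adjusted p = 0.076; exact sign-flip permutation p = 0.00781) and 0.49 ± 0.090 without A115 (limma adjusted p = 0.000167). The 4 LD-conditioned mice, at 0.68 to 1.01, all exceeded A75, A91 and A94, at 0.083 to 0.24. Ciart was higher in the liver of 7 of 8 mice, the exception being A75 at −0.90, with a mean of 1.12 ± 0.51 (limma adjusted p = 0.0615, and 0.0443 with the mouse as a block). Cry1 was also higher in the liver of 7 of 8 mice, the exception being A94 at −0.28, with a mean of 0.48 ± 0.23 (limma adjusted p = 0.0696). After median ratio scaling all 3 were called, with Cry2 at 1.67 ± 0.37, Ciart at 1.86 ± 0.46 and Cry1 at 1.24 ± 0.26 (limma adjusted p = 0.00086, 0.0020 and 0.00056). Per3 was lower as deposited in the liver of all 8 mice, with the smallest difference in L86 (−0.026) and a mean of −0.51 ± 0.27 (limma adjusted p = 0.105; exact sign-flip permutation p = 0.00781), which became 0.24 ± 0.24 after scaling.

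In all, 2 of 8 members were called in this comparison, both lower in liver, where 74.5% of all genes were called. Without A115, 5 of 8 were called, where 85.6% of all genes were. With median ratio scaling 7 of 8 were called, 6 of them higher in liver, where 65.3% of all genes were. In the LD-conditioned mice alone 6 of 8 were called, 2 of them higher in liver (Cry2 at 0.82 ± 0.091 and Ciart at 1.52 ± 0.33), where 85.1% of all genes were.

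**Figure D4:**
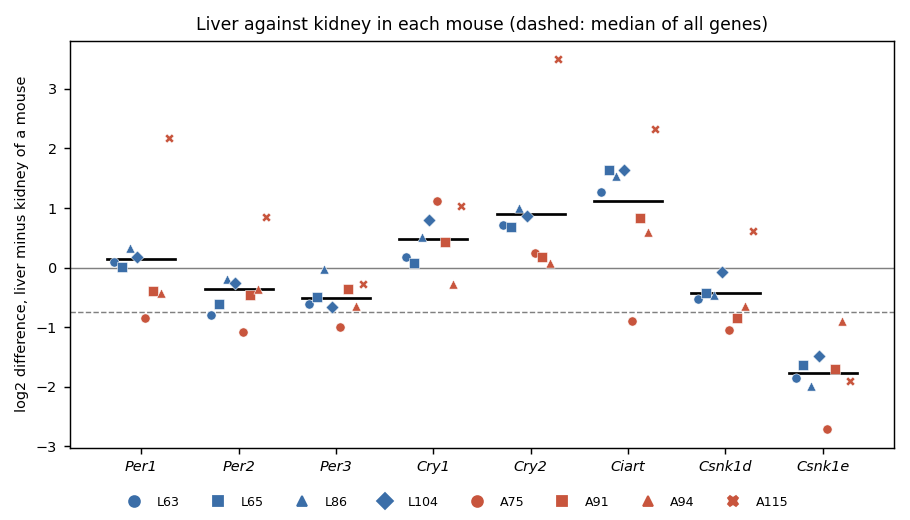
log2 difference between liver and kidney of the same mouse (vertical axis) for each gene; points are mice, black bars the mean of 8 mice, the dashed line the median of all genes as deposited. Csnk1e and Per3 lie below 0 and Cry2 above 0 in all 8 mice, and A115 is the highest point for Per1, Per2, Cry2, Ciart and Csnk1d.

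Over the 8 mice, the liver level of a member was correlated with its kidney level. Pearson's r was 0.869 for Per3 (permutation p = 0.0159, adjusted over 8 genes p = 0.128) with Spearman's rho of 0.50 (permutation p = 0.216), and r was 0.372 without A75 and A115, so the relation rests on those mice. Cry2 had r = 0.715 (permutation p = 0.0978, adjusted 0.244) and rho = −0.19 (permutation p = 0.665), and r was −0.307 without A115. Ciart had r = 0.596 (permutation p = 0.122, adjusted 0.244) and rho = 0.762 (permutation p = 0.0368, adjusted 0.294), with r = 0.878 without A75 and A115. Of the 8 genes 0 passed the adjusted threshold, and the median r was 0.467 beside 0.141 over 12319 genes expressed in both organs.

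The genes whose profile over the mice was most like that of a member were taken by the lower of 2 correlations, r over the 8 livers and r over the 8 kidneys of log2(FPKM + 0.1). They are a description, since the points share libraries and the nearest of 12319 genes were taken. For Per3 the nearest was Tef, a PAR bZIP factor that acts on D-boxes, with r = 0.970 in liver and 0.984 in kidney, and 0.941 and 0.967 without A115. For Ciart, Echs1 and Dbp, another PAR bZIP factor, led with 0.960 and 0.917 in liver and 0.921 and 0.932 in kidney, and Dbp kept 0.956 and 0.885 without A115.

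In liver the lowest mice for Dbp, as for Ciart, were A75 and A115. Dbp there was 28.6, 22.0, 13.4 and 8.25 FPKM and then 2.40, 37.8, 33.7 and 1.33. Tef in liver was 42.6, 44.8, 46.0 and 39.2 FPKM and then 23.8, 46.2, 41.1 and 20.9, with A75 and A115 the lowest. Arntl, which encodes BMAL1 and was looked at beside the nearest genes, had r in liver of −0.899 to Ciart, −0.782 to Per3, −0.498 to Cry2, −0.494 to Csnk1e, −0.278 to Per1, 0.0207 to Per2, 0.311 to Csnk1d and 0.820 to Cry1. In kidney its r was −0.809 to Ciart, −0.862 to Per3, −0.705 to Cry2, 0.451 to Csnk1e, −0.574 to Per1, −0.596 to Per2, −0.358 to Csnk1d and 0.117 to Cry1. Without A115 the kidney r was −0.625 to Ciart and −0.859 to Per3, whereas those to Per1 and Csnk1d turned to 0.273 and 0.566. Those to Per2 and Cry2 moved to −0.0493 and −0.414 in kidney, and that to Cry2 in liver moved to −0.162. For the other members the nearest genes were Rbm14 (Per1), 4833439L19Rik (Per2), Hsdl2 (Cry1), Sun2 (Cry2), Zfp384 (Csnk1d) and Prkch (Csnk1e), with a lower r of 0.957, 0.910, 0.762, 0.952, 0.959 and 0.902. The next genes were Atmin and Tmem11 for Per1, Trp53bp2 for Per2, Khk and Mir22hg for Per3, Stip1 and Reep3 for Cry1, Lmbr1l and Npepl1 for Cry2, Cisd1 for Ciart, Fam53c and Tfip11 for Csnk1d and Rell1 and Ostf1 for Csnk1e, with a lower r of 0.714 (Reep3) to 0.958 (Fam53c). Without A115 the kidney r of the Per1 pair was 0.757 and that of the Per2 pair 0.539, whereas those of Hsdl2 with Cry1 and Prkch with Csnk1e were 0.834 and 0.915. Of the next genes, Atmin with Per1 had a kidney r of −0.0069 without A115, and Khk with Per3 one of 0.635. The other next genes named kept 0.714 (Reep3) to 0.913 (Ostf1) there.

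**Figure D5:**
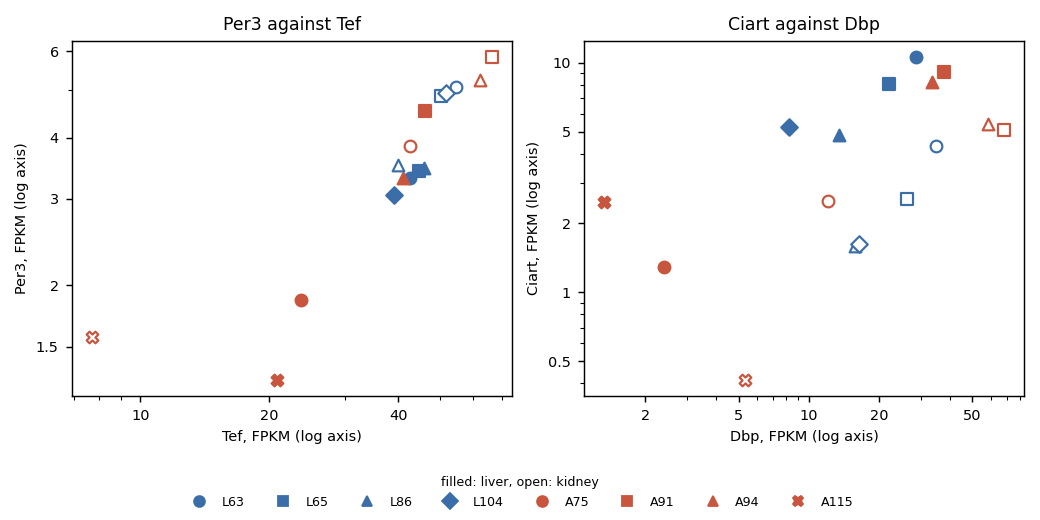
Per3 against Tef and Ciart against Dbp in every library, FPKM on log axes; filled symbols are livers and open symbols kidneys, blue LD-conditioned and red ADV-conditioned mice. In liver, A75 and A115 have the lowest values of all 4 genes.

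The other genes of the pathway were counted in 4 lists: 13 genes of the transcription loop and its outputs (12 of them tested in liver), 16 kinases and phosphatases of PER and CRY, 12 ubiquitin ligases and deubiquitinases of PER and CRY, and 9 partners of the complex. In the comparison of the conditions 0 genes of any list were called in liver or in kidney over 8 mice. The loop list had a median log2 fold change of −0.37 in liver, beside 0.10 over all genes, and −0.30 in kidney, beside −0.024. Without A115 these medians were −0.098 beside 0.093 in liver and −0.28 beside 0.20 in kidney. Among the loop genes with small p were the output factor Tef at −0.47 ± 0.24 in liver (limma adjusted p = 0.461) and the output factor Hlf at −0.51 ± 0.21 in kidney (limma adjusted p = 1). Of the kinases and phosphatases, the smallest p belonged to Gsk3a (−0.23 ± 0.12) and Ppp1cb (0.14 ± 0.076) in liver and to Csnk2a2 (−0.40 ± 0.18) and Csnk1g3 (−0.39 ± 0.21) in kidney. Of the ligases and deubiquitinases, it belonged to the ligase scaffold Cul4a (−0.21 ± 0.093) and the F-box gene Fbxl21 (0.52 ± 0.24) in liver and to Fbxl21 (−0.66 ± 0.42) and Skp1a (−0.22 ± 0.14) in kidney. Of the complex partners, it belonged to Timeless and Tipin in both organs, at 0.67 ± 0.28 and 0.35 ± 0.21 in liver and 0.69 ± 0.36 and 0.42 ± 0.25 in kidney. The limma adjusted p of these genes was 0.412 (Timeless) to 0.502 (Tipin) in liver and 1 in kidney.

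For the difference of the effect between the organs 0 listed genes were called over 8 mice, with the smallest p in each list at Bhlhe40 (0.63 ± 0.43) and Clock (0.53 ± 0.44), Csnk2a2 (0.45 ± 0.24) and Csnk2a1 (0.27 ± 0.17), Cul1 (0.41 ± 0.16) and Fbxl21 (1.17 ± 0.49), and Sfpq (−0.11 ± 0.21) and Hdac3 (0.11 ± 0.24), all with a limma adjusted p of 1. Without A115 1 listed gene was called, Cul1 at 0.47 ± 0.12 (limma adjusted p = 0.0476), where 2.88% of all genes were.

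Without A115, 5 listed genes were called in kidney. Clock fell (−0.44 ± 0.12, limma adjusted p = 0.0384), as did the kinase gene Csnk1g3 (−0.58 ± 0.11, limma adjusted p = 0.0136) and the ubiquitin ligase scaffold Cul1 (−0.31 ± 0.075, limma adjusted p = 0.0284). The kinase gene Csnk1g2 rose (0.68 ± 0.12, limma adjusted p = 0.013), as did Ppp1ca, a catalytic subunit of protein phosphatase 1 (0.50 ± 0.11, limma adjusted p = 0.0224). By list that was 1 of 13, 3 of 16, 1 of 12 and 0 of 9, where 18.8% of all genes were called. The median of all genes was 0.20, and 2336 of the 2724 genes called were higher. With median ratio scaling added, 1203 genes were called higher and 1115 lower. For each of the 5 listed genes the kidney of A115 lay on the other side of every LD-conditioned kidney, with Csnk1g2 at 5.16 and Ppp1ca at 45.7 FPKM.

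Between the organs, 6 of 13 loop genes were called, 4 lower and 2 higher in liver, the latter including Nfil3 at 1.71 ± 0.30. Among those lower in liver were Hlf at −1.43 ± 0.14, Npas2, a relative of Clock, at −2.07 ± 0.34 and Bhlhe41 at −0.93 ± 0.32. Of the kinases and phosphatases 13 of 16 were called, of the ligases and deubiquitinases 12 of 12 and of the complex partners 8 of 9, all lower in liver except 1 gene among the ligases and deubiquitinases, as against 74.5% of all genes called. Among all genes, 8837 of the 10719 called were lower in liver as well. After median ratio scaling 4527 genes were called higher in liver and 4857 lower, and the lists were not counted under that scaling. The median was −0.27 for the loop list, −1.09 for the kinases and phosphatases, −0.88 for the ligases and deubiquitinases and −0.65 for the complex partners, beside −0.74 over all genes, so the first and the last lay above that median. Csnk1g1, another casein kinase 1 gene, was at −1.61 ± 0.11 (limma adjusted p = 2.6e-09). The kinase and phosphatase genes next by p were Prkaa1 (−1.43 ± 0.10), Ppp1cc (−1.52 ± 0.11), Csnk2b (−1.17 ± 0.097) and Dyrk1a (−1.12 ± 0.096). Of the ligases and deubiquitinases those with small p included Fbxw11 (−1.87 ± 0.13), Mdm2 (−1.31 ± 0.11), Usp7 (−0.83 ± 0.080) and Cul1 (−0.65 ± 0.081), and of the complex partners Sfpq (−1.04 ± 0.10), Chd4 (−1.35 ± 0.14), Nono (−0.65 ± 0.095), Tipin (−0.97 ± 0.17) and Hdac3 (−0.64 ± 0.12). All of these passed the threshold, although Cul1, Nono and Hdac3 lay above the median of all genes.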

How the data were processed

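Poly(A) RNA of 16 samples was sequenced by 2 providers, and the authors trimmed reads with Trimmomatic, mapped them to mm10 with STAR 2.5.4b, dropped low-quality alignments and summed fragments over exons with HOMER. The deposited values are FPKM, with no normalization between libraries. They are whole multiples of 0.5 fragment within a tolerance of 0.02. The submitters' notes also name bcl2fastq.

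FPKM are not counts, and the count-based test of the study was not run. log2(FPKM + 0.1) of genes with a mean above 0.5 fragments per 1000000 mapped was fitted with limma 3.58.1 (R 4.3.3, trend), with Benjamini-Hochberg adjustment over all genes and a threshold of 0.05. Exact permutation tests (Python 3.11.15) stand beside. Each organ was fitted alone, and the organ comparison and interaction in a model of all 16 libraries. Alternatives were 2 pseudocounts, 2 filters, 3 scalings, limma-voom, the mouse as a block and leaving out each mouse. Scripts were tested on simulated data. All 8 members, their 3 most alike genes and, per list and comparison over 8 mice, called genes up to 5 (otherwise 2) by p were named. The values of 3 of these genes are not reported here. Members and lists were chosen with earlier results of these data known. Libraries of 1 mouse share its number in the labels, and the correlation of their deviations from the group means was −0.024 to 0.553.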

Additional observations from a re-analysis of the deposited data

Results flagged for a closer look

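Of 32 groups of 4 libraries (8 genes, 2 organs and 2 conditions), 1 held a library that stood apart from the other 3 by the ratio of its gap to the range. Per3 in the kidney of L86 was 3.53 FPKM against 4.86 to 5.08 in the other LD-conditioned kidneys, a gap of 0.858 of the range. About 1 group in 20 is picked out in this way with no difference present, and the kidney of A115 was not picked out for any gene.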

How the results depend on the processing

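Of the 8 members, the number called was 0 in liver under every alternative run, and 0 for the difference between the organs, the mouse as a replicate block included. In kidney it was 0 except 3 without A115 and 2 with median ratio scaling added, an alternative chosen after seeing the data. Leaving out each mouse in turn gave 0 to 3 there. For liver against kidney the 2 called became 4 with a pseudocount of 1, 1 with no filter, 3 with limma-voom by adding Cry2 (adjusted p = 0.0487), 7 with median ratio scaling (also without A115), 5 with quantile normalization, 4 with mitochondrial genes left out of the total, 6 in LD-conditioned and 1 in ADV-conditioned mice alone, and 1 to 5 with a mouse left out (5 without A115). Of all genes, 10754 of 14379 were called with a pseudocount of 1, 12586 of 21455 with no filter and 10665 of 14379 with limma-voom. With quantile normalization 9142 of 14379 were called, and with mitochondrial genes left out 11366 of 14379. In ADV-conditioned mice alone 7145 of 14552 were called, and with a mouse left out 10079 of 14410 (L63) to 12326 of 14397 (A115). Csnk1d missed the threshold when any 1 mouse other than A115 was left out, with 1 called without L63, L65, L86, L104 or A91 and 2 without A75, where Ciart was called (adjusted p = 0.0335), or A94, where Cry1 was (0.0280). The replicate block by mouse used 1 within-mouse correlation shared by all genes (0.0958). It gave 3 by adding Ciart (limma adjusted p = 0.0443) and changed no other call. For the relation between the organs the count was 0 to 1 with a mouse left out, 1 without L86 or without A75. The causes were not tested.

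Signs turned as follows, on the log2 scale. After median ratio scaling, quantile normalization and median ratio scaling without A115, liver minus kidney was 0.40, 0.28 and 0.28 for Per2, 0.24, 0.31 and 0.26 for Per3, and 0.34, 0.072 and 0.23 for Csnk1d. With a mouse left out it spanned −0.20 to 0.30 for Per1. With a mouse left out, ADV against LD spanned −0.17 to 0.0018 for Csnk1d and −0.20 to 0.36 for Csnk1e in liver, and −0.52 to 0.47 for Per1, −0.50 to 0.11 for Per3, −0.92 to 0.39 for Cry2, −0.34 to 0.80 for Ciart and −0.13 to 0.38 for Csnk1d in kidney. Csnk1e in liver was −0.067 with quantile normalization, and Ciart in kidney −0.0071 with limma-voom. With A115 left out and median ratio scaling, kidney Per1 was 0.28 and Cry2 0.21. The difference between the organs spanned −0.71 to 0.30 for Per1, −0.17 to 0.47 for Per2, −0.22 to 0.021 for Per3, −0.65 to 0.49 for Cry2, −0.47 to 0.077 for Csnk1d and −0.36 to 0.24 for Csnk1e with a mouse left out. It was −0.060 for Cry2 with a pseudocount of 1, and −0.096, −0.57 and 0.056 for Per2, Cry2 and Csnk1e without A115 and with median ratio scaling.

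The correlation r between the organs spanned −0.257 to 0.568 for Per1, −0.307 to 0.849 for Cry2, −0.177 to 0.0901 for Csnk1d and −0.208 to 0.596 for Csnk1e with a mouse left out, and was −0.0765 for Csnk1e with median ratio scaling and −0.393 for Per2 with the condition means removed. The log2 difference in Cry1/Cry2 spanned −0.48 to 0.20 in liver and −1.16 to 0.42 in kidney. The spread ratio spanned 0.374 to 1.39 for Per2 in liver, 0.471 to 4.47 for Per2 in kidney and 0.723 to 5.15 for Ciart in kidney, and was 1.12 for Per2 in liver with median ratio scaling. Results on Ciart in kidney rest on 11 to 148.5 fragments per library.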
